A study of Homo sapiens with 6 samples.

Results

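Estrogen-responsive genes were followed in LNCaP cells, an established human line of prostate adenocarcinoma, after exposure to urolithin A. The set named 8 genes that estrogen regulates in other tissues: GREB1, PDZK1, IGFBP4, SIAH2, MYBL1, CXCL12, RET and CA12. A probe set was counted as a member when the platform annotation listed 1 of these symbols for it and no other. This gave 23 of the 49386 probe sets, covering 7 of the 8 genes. PDZK1 had no such probe set, because its 2 probe sets are also listed for the pseudogene PDZK1P1.

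RNA was measured on the Affymetrix U219 array. Untreated control cells gave 3 arrays, and cells kept for 24 h with 40 µM urolithin A gave another 3. The F12 medium of both groups held 7% fetal bovine serum, which may carry steroid hormones, and the treatment protocol names saline for the controls. Every value is on the log2 scale relative to the median of the 3 controls. Differences between arrays can therefore be read, while levels cannot, and no transcript can be called abundant or rare from them. For the same reason the cell line could not be checked against the presence of its markers. In bulk RNA, a smaller number of cells expressing a gene and less of its RNA per cell cannot be told apart. Whether same-group arrays stem from separate cultures is not in the labels. The p-values therefore reflect array-to-array spread alone, part of which may be technical.

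Estrogens act through the nuclear receptors ESR1 and ESR2, which bind DNA at inverted repeats of a short core motif or are tethered there by other factors such as SP1, and through the membrane receptor GPER1. Urolithin A, which gut bacteria make from ellagic acid, is described as a weak phytoestrogen, a plant-derived compound that can occupy estrogen receptors. LNCaP cells depend on the androgen receptor, which in this line carries an altered ligand pocket that estrogens can also fill. Several genes known as estrogen targets in breast cells, GREB1 among them, are also induced by androgen in prostate cells.

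The start regions of the genes are shown here because both receptor binding and SP1 tethering are described for sequences near gene starts. RefSeq promoters (GRCh38.p14, 250 bases before to 50 after the start) were found for 6 of the 8 genes, and GREB1 and MYBL1 were not in that table. The promoter of CA12, the gene with the deepest fall, and that of CXCL12, which did not pass the test, each held the core motif once. That of SIAH2, for which 1 of 2 probe sets fell, held none. Each sequence reads 5′ to 3′ along the gene's strand, which is the minus strand for all 3, and capitals mark the core motif GGTCA or its complement TGACC.
CA12, chr15:63381797-63382096, minus strand: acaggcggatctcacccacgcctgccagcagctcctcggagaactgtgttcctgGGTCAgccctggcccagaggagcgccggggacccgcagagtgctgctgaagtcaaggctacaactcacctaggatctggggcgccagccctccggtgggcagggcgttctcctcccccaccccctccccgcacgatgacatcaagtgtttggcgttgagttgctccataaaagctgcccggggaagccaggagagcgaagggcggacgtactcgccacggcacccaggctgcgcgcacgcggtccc
CXCL12, chr10:44385048-44385347, minus strand: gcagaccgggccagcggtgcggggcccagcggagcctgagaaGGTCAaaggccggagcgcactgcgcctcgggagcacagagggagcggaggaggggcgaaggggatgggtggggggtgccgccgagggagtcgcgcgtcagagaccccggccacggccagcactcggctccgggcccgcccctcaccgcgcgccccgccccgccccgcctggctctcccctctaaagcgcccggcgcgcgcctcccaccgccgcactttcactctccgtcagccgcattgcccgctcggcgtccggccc
SIAH2, chr3:150763120-150763419, minus strand: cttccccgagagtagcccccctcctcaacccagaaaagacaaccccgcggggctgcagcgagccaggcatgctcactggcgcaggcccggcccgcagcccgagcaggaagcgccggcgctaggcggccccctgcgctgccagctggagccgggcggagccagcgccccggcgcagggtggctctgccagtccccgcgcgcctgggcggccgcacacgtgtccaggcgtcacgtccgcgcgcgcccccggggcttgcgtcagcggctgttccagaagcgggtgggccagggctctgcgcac
The motif began 196 bases before the start in CA12 and 208 bases before it in CXCL12. Among all 35116 promoters of that length, 37.4% held GGTCA or TGACC on either strand. The complete inverted repeat GGTCANNNTGACC, which contains the core motif on both sides, was found in none of the member promoters and in 0.057% of all promoters. All 5 measured genes with a promoter entry (IGFBP4, SIAH2, CXCL12, RET and CA12) held at least 1 GC box, GGGCGG or its complement CCGCCC, the motif that SP1 binds, as did 45% of all promoters. GGTCA was absent from the promoters of IGFBP4 and RET. The androgen receptor hexamer AGAACA or TGTTCT occurred in none of these 5 and in 14.8% of all promoters. The share of G and C bases was 66.7% for CA12 and 78.7% for 1 RET promoter, with IGFBP4, SIAH2 and CXCL12 in between. Another RET promoter was at 58.7%, which was also the median over all promoters. The members were counted per gene and the background per promoter. The part of base composition in these counts was not tested. The promoter of PDZK1, which was not measured by a probe set of its own, held the core motif once and the hexamer once, and no GC box. These are matches of letters in a short window, and binding was not measured.

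None of the 7 measured members passed the test as higher after urolithin A. CA12 and GREB1 fell, by 1.47-fold and 1.37-fold, and the remaining 5 genes did not pass the test. SIAH2 was lower by a smaller amount that did not pass, and MYBL1, RET, IGFBP4 and CXCL12 had changes of at most 1.06-fold. Of 18239 genes on the array, 5.31% fell and 4.85% rose by the same test (limma's moderated test, Benjamini-Hochberg adjusted p under 0.05 over all genes). At an unadjusted p under 0.05, 3 members were lower and 0 were higher, where 11.5% of all genes were lower and 12.5% higher (24.1% in either direction). The urolithin A arrays lay wholly below the controls for 2 members, CA12 and GREB1, and for 13.7% of all genes. They lay wholly above the controls for 0 members and for 15.6% of all genes. The median log2 change was -0.053 over the 7 members and 0.010 over all genes. The median size of the change, without regard to sign, was 0.084 over the members and 0.0998 over all genes. With 7 genes, these counts describe the members and do not set them apart from other genes.

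**Figure D1:**
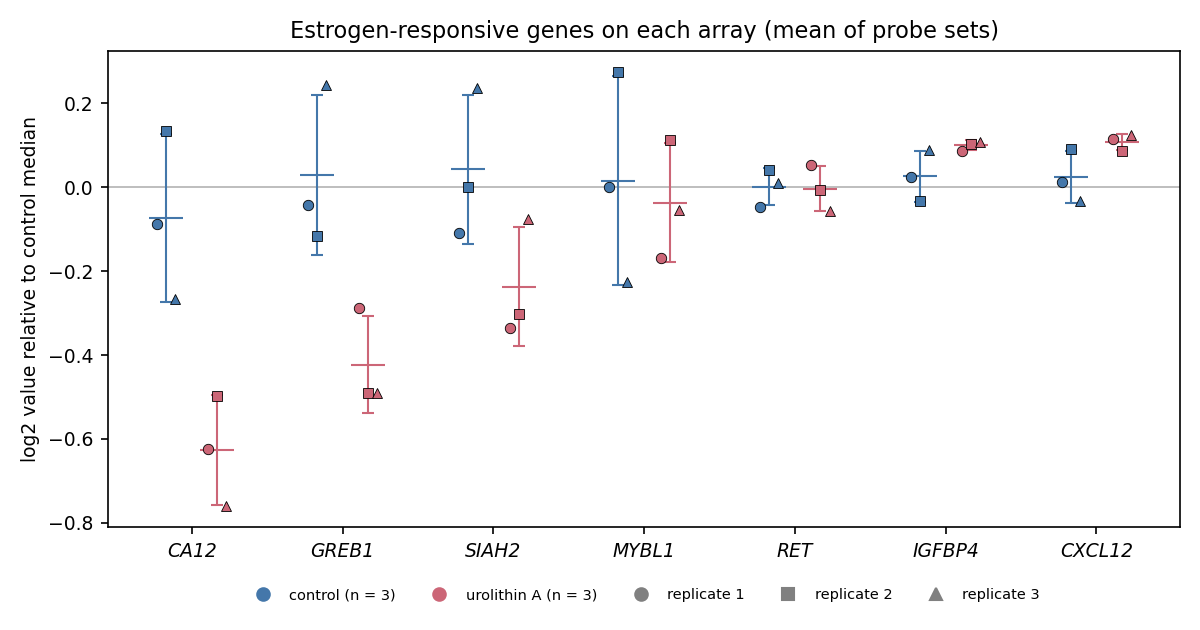
Log2 value of each estrogen-responsive gene relative to the control median (y axis) on each of the 6 arrays (points, shaped by replicate number), as the mean of the gene's probe sets, with group means and SD (bars, n = 3). The urolithin A arrays lie below all controls for CA12 and GREB1, and the groups overlap for SIAH2, MYBL1, RET, IGFBP4 and CXCL12.

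CA12 codes for carbonic anhydrase XII, a membrane enzyme that hydrates carbon dioxide outside the cell and is a common marker of estrogen receptor activity in breast tumours. On the log2 scale it stood at -0.087, 0.14 and -0.27 in control replicates 1, 2 and 3 and at -0.62, -0.50 and -0.76 in urolithin A replicates 1, 2 and 3. All 3 treated arrays were lower than every control. The group means were -0.073 ± 0.20 (SD, n = 3) and -0.63 ± 0.13 (SD, n = 3). The log2 change was -0.55 (SE 0.11, limma adjusted p = 0.0172), and 1.66% of all genes had a lower one. The 5 probe sets of CA12 were lower without exception, with log2 changes from -0.69 to -0.40. Tested singly over all probe sets, 3 of them passed (adjusted p = 0.0148, 0.0282 and 0.0333) and 2 did not (adjusted p = 0.0820 and 0.137). The value moved little without any 1 array, from -0.65 to -0.45, but the call ended without control replicate 1, urolithin A replicate 1 or urolithin A replicate 3 (limma adjusted p = 0.0536, 0.0537 and 0.0521).

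GREB1 codes for a cofactor that binds the estrogen receptor and is required for estrogen-driven growth of breast cells. It stood at -0.041, -0.11 and 0.25 in control replicates 1, 2 and 3 and at -0.29, -0.49 and -0.49 in the urolithin A replicates. The groups did not overlap. The means were 0.030 ± 0.19 (SD, n = 3) and -0.42 ± 0.12 (SD, n = 3), and the log2 change was -0.45 (SE 0.11, limma adjusted p = 0.0309). This value rested on 1 of the 3 probe sets. Probe set 11755246_x_at read 0, -0.41 and 0.46 in the controls and -0.78, -1.18 and -1.32 after urolithin A, a 2.16-fold fall (log2 change -1.11, SE 0.22, limma adjusted p = 0.0168). It was the member probe set with the deepest change and also the one whose controls spread widest (SD 0.44). The other GREB1 probe sets, 11737404_at and 11738254_at, were at -0.14 and -0.11 on the log2 scale, short of the threshold (adjusted p = 0.485 and 0.615), and their groups overlapped. The suffix x marks a probe set whose probes may match other transcripts. Without probe sets so marked or marked s, the log2 change of GREB1 was -0.12 (limma adjusted p = 0.412), and with the median of its probe sets it was -0.22 (adjusted p = 0.242). The call also ended without control replicate 1, control replicate 3, urolithin A replicate 2 or urolithin A replicate 3 (limma adjusted p = 0.0661, 0.0668, 0.0961 and 0.0883).

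SIAH2, a ubiquitin ligase that marks prolyl hydroxylases and corepressors for destruction, showed the same division between probe sets. Its gene values were -0.11, 0 and 0.24 in the controls and -0.33, -0.30 and -0.074 after urolithin A, so that replicate 3 of the treated group reached into the control range. The log2 change of -0.28 did not pass (SE 0.11, limma adjusted p = 0.151), with an interval (95%) from -0.52 to -0.034. Without a single array it ranged from -0.36 to -0.18, the smallest being without control replicate 3 (adjusted p = 0.355). Probe set 11743067_at read -0.11, 0 and 0.32 in the controls and -0.59, -0.63 and -0.36 after urolithin A, a 1.51-fold fall that passed on its own (log2 change -0.60, limma adjusted p = 0.0260). Probe set 11743068_at read -0.11, 0 and 0.15 against -0.076, 0.031 and 0.21, and its log2 change of 0.041 had the opposite sign. Neither name marks shared sequence, and which transcripts each detects was not examined. Both probe sets were at their highest in replicate 3 of each group.

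**Figure D2:**
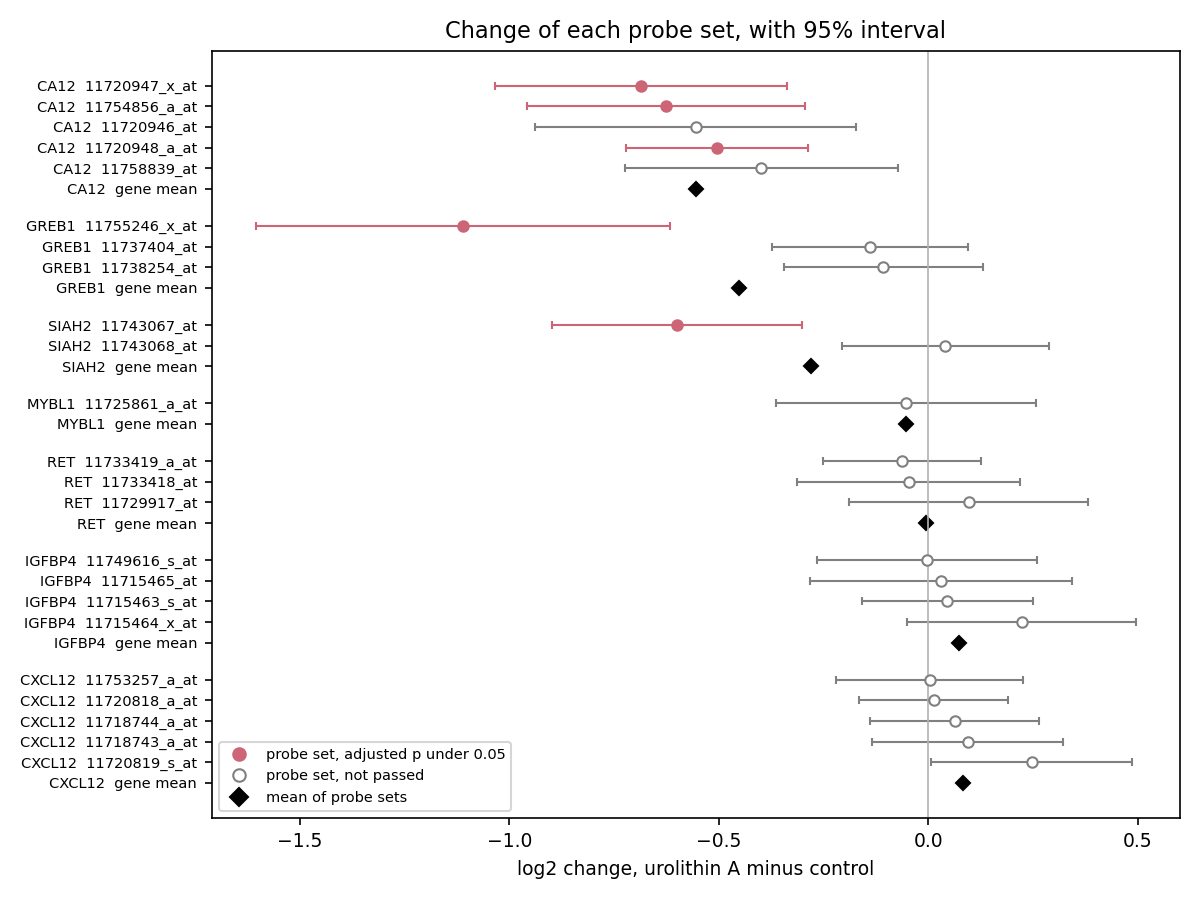
Log2 change of each of the 23 member probe sets (circles, filled where the adjusted p was under 0.05) with its 95% interval, and the mean of each gene's probe sets (diamonds). The 5 probe sets that passed all fell, 3 of CA12 and 1 each of GREB1 and SIAH2, and within GREB1 and SIAH2 the other probe sets lie near 0.

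Over all 23 probe sets, 5 fell, none rose and 18 did not pass, where 4.44% of all 45253 named probe sets fell and 8.51% were called in either direction. The groups were apart in the same direction for 5 of the 23, and for 13.6% of all probe sets, with 28.1% apart in either direction. Probe sets of 1 gene may detect the same transcripts, which was not examined, so they are not taken as independent counts.

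MYBL1 and RET had changes near 0. MYBL1, the transcription factor A-MYB, has 1 probe set. It read 0, 0.27 and -0.23 in the controls and -0.17, 0.11 and -0.054 after urolithin A. The treated arrays lay inside the control range, and the log2 change was -0.053 (SE 0.13, limma adjusted p = 0.858) with a wide interval from -0.35 to 0.24. RET, the receptor tyrosine kinase for ligands of the GDNF family, read -0.046, 0.041 and 0.011 against 0.053, -0.0053 and -0.056. Its log2 change was -0.0049 (SE 0.065, limma adjusted p = 0.978), with an interval from -0.15 to 0.14. The sign of both turned in some fits without 1 array: MYBL1 was at 0.076 without control replicate 2 and 0.013 without urolithin A replicate 1, and RET at 0.015 without control replicate 2 and 0.022 without urolithin A replicate 3.

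The secreted members had small positive changes that did not pass. IGFBP4, which binds insulin-like growth factors outside the cell, read 0.024, -0.032 and 0.088 in the controls and 0.087, 0.10 and 0.11 after urolithin A. Its log2 change was 0.074 (SE 0.064, limma adjusted p = 0.554), with an interval from -0.072 to 0.22 for the mean of its probe sets. The interval of its probe set 11715464_x_at alone reached 0.49. CXCL12, the chemokine that signals through CXCR4 and ACKR3, read 0.014, 0.091 and -0.032 against 0.11, 0.086 and 0.12. Its log2 change was 0.084 (SE 0.064, limma adjusted p = 0.498), with an interval from -0.063 to 0.23. For each gene the highest control overlapped the treated arrays. All 5 probe sets of CXCL12 had positive changes, from 0.0034 to 0.25, and none passed. The 4 probe sets of IGFBP4 ranged from -0.0027 to 0.22.

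The members differed in how far replicates spread. The within-group SD was 0.043 for IGFBP4, 0.046 for CXCL12 and 0.050 for RET, and at most 10.8% of all genes had a smaller one. The median over all genes was 0.0998. It was 0.16 for GREB1 and for SIAH2, 0.17 for CA12 and 0.20 for MYBL1, larger than in at least 81.3% of genes. In an exact two-sided permutation test over the 6 arrays, CA12 and GREB1 had p = 0.1, the smallest that 3 against 3 arrays can give. The exact permutation p was 0.2 for SIAH2, IGFBP4 and CXCL12 and 0.9 for MYBL1 and RET. The 2 probe sets listed for both PDZK1, a scaffold for membrane transporters, and its pseudogene had log2 changes of -0.042 and 0.068 (limma adjusted p = 0.830 and 0.787). They cannot be assigned to either gene and were left out of all counts.

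The receptors of estrogen showed no change that passed. ESR1, the classical estrogen receptor, read 0.067, 0.016 and -0.062 in the controls and 0.042, 0.13 and -0.024 after urolithin A (log2 change 0.042, SE 0.071, limma adjusted p = 0.787). ESR2, the form often described in prostate epithelium, had a log2 change of 0.0039 (SE 0.075, limma adjusted p = 0.985), and GPER1 one of 0.027 (SE 0.070, limma adjusted p = 0.870). The sign of ESR2 turned when arrays were centred on their median and that of GPER1 without probe sets of shared sequence, at -0.0062 and -0.0019. The orphan receptors ESRRA, ESRRB and ESRRG, which resemble them, lay between -0.034 and -0.0058. At an unadjusted p under 0.05, 0 of these 6 receptors were higher and 0 were lower in the limma fit. Of all genes, 24.1% were below it in either direction. Among 12 measured coregulators and pioneer factors the median log2 change was 0.026, and 1 of them rose while 11 did not pass. The called share was 8.33%, where 10.2% of all genes were called. The riser was CREBBP, an acetyltransferase that nuclear receptors recruit, at 1.24-fold (log2 change 0.31, SE 0.083, limma adjusted p = 0.0487). Leaving out urolithin A replicate 2 kept that call. Leaving out any other array ended it, at adjusted p up to 0.138, as did the median of its probe sets (log2 change 0.17, adjusted p = 0.305).

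Other genes that estrogen induces gave few calls. Of 43 measured, 1 rose, 1 fell and 41 did not pass, so that 4.65% were called where 10.2% of all genes were. Their median log2 change was 0.076. At an unadjusted p under 0.05, 8 were higher and 5 lower, beside the 24.1% of all genes that were below it. CELSR2, a cadherin of cell polarity, read -0.11, 0.16 and -0.19 in the controls and 0.54, 0.19 and 0.47 after urolithin A, a 1.37-fold rise (log2 change 0.45, SE 0.12, limma adjusted p = 0.0479). Leaving out control replicate 1 or 3, or urolithin A replicate 1 or 3, ended the call of CELSR2 (adjusted p up to 0.143), and it was lost with arrays centred on their median (adjusted p = 0.0535). IL17RB, a receptor of interleukin 17 cytokines, read -0.29, 0.041 and 0 against -0.68, -0.51 and -0.38, a 1.36-fold fall (log2 change -0.44, SE 0.11, limma adjusted p = 0.0397). Leaving out control replicate 2 or 3, or urolithin A replicate 1 or 2, ended its call (adjusted p up to 0.129). IL17RB has 1 probe set, whose name marks shared sequence and which did not pass when probe sets were tested singly.

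The estrogen targets with the furthest values did not pass, since their treated arrays disagreed. TFF1, a secreted trefoil peptide and a standard readout of estrogen in breast cells, stood at -0.37, 0 and 0.16 in the controls and at 4.39, 3.14 and -0.29 in urolithin A replicates 1, 2 and 3. Replicates 1 and 2 of the treated group were thus far above every control and replicate 3 inside their range (log2 change 2.48, SE 0.97, limma adjusted p = 0.155). Without urolithin A replicate 3 the log2 change was 3.84 (adjusted p = 0.00173), and without urolithin A replicate 1 it was 1.5 (adjusted p = 0.357). KRT19, a keratin of simple epithelia, stood at 0.33, -0.055 and 0 against -0.063, -0.96 and -1.80, so that the 3 treated arrays differed among themselves by more than their mean did from the controls. Its log2 change was -1.03 (SE 0.36, limma adjusted p = 0.117), with -1.47 without urolithin A replicate 1 (adjusted p = 0.0148) and -0.60 without urolithin A replicate 3 (adjusted p = 0.193). KRT19 was at -0.036 (adjusted p = 0.911) in a fit of only 3 arrays, control replicates 2 and 3 and urolithin A replicate 1. PGR, the progesterone receptor gene and another standard readout, read 0.010, 0.017 and -0.021 against 0.12, 0.18 and 0.22. The groups of PGR did not overlap, but its log2 change of 0.17 did not pass (SE 0.063, limma adjusted p = 0.132). TFF1, KRT19 and PGR were named after their values were seen. So were the leukocyte markers, the keratin genes and HOXB13 given further on.

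**Figure D3:**
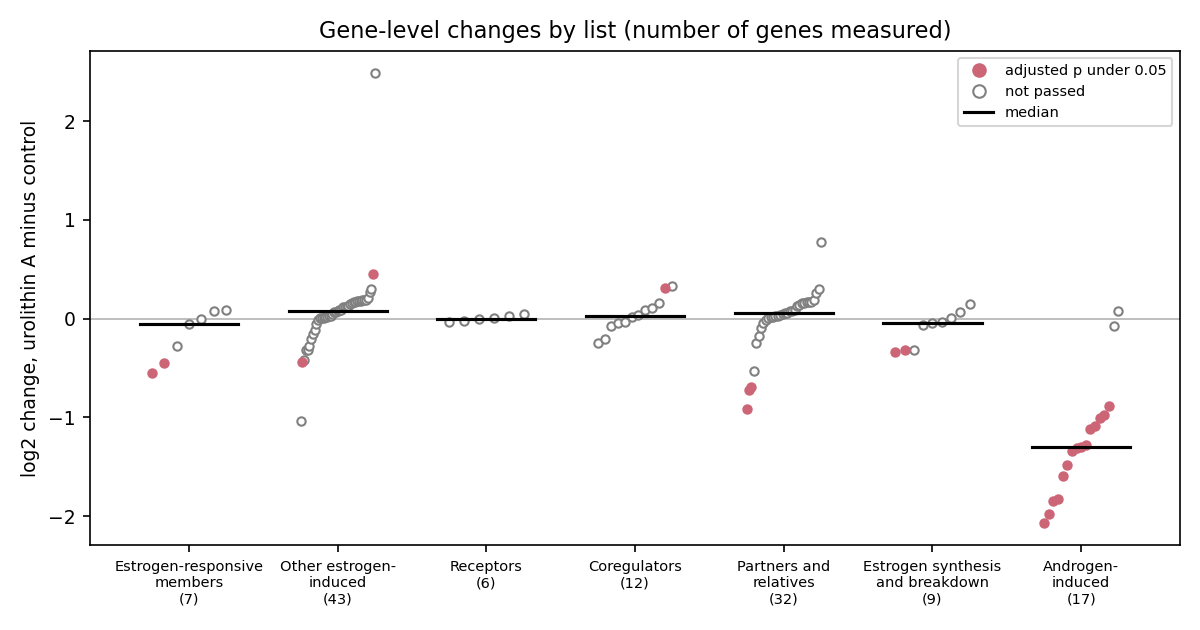
Log2 change of each measured gene (circles, filled where the adjusted p was under 0.05) in 7 lists, with the median of each list (bar). Members and other estrogen-induced genes centre near 0, at -0.053 and 0.076, while 15 of 17 androgen-induced genes fell, with a median of -1.30.

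Genes that work with the members, or belong to their families, fell in 3 of 32 cases and rose in 0, and the other 29 missed the threshold. The called share of 9.38% was near the 10.2% of all genes. Their median log2 change was 0.054. At an unadjusted p under 0.05, 2 were higher and 5 lower by limma, against 24.1% of all genes in either direction. While IGFBP4 lay near 0, the receptor and a ligand of the same axis were lower. IGF1R, the receptor of insulin-like growth factors, read 0.051, -0.021 and 0.027 in the controls and -0.82, -0.86 and -1.0 after urolithin A, a 1.88-fold fall (log2 change -0.91, SE 0.072, limma adjusted p = 0.000355). That fall was called without each single array. IGF1 read -0.054, -0.26 and 0.43 against -0.56, -0.63 and -0.75 (log2 change -0.69, SE 0.16, limma adjusted p = 0.0276). It was called without control replicate 2 or control replicate 3, and not without the other arrays, at adjusted p up to 0.0791.

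MYBL2, or B-MYB, a relative of MYBL1 that acts in dividing cells, read 0, 0.00055 and -0.19 in the controls and -0.71, -0.67 and -0.96 after urolithin A. It fell 1.64-fold (log2 change -0.72, SE 0.095, limma adjusted p = 0.00293) and was called without each single array. The receptors of CXCL12 spread widely. CXCR4 read 0.45, -0.10 and -0.010 against -0.18, 1.09 and 1.76, and its log2 change of 0.77 did not pass (SE 0.41, limma adjusted p = 0.303). Without urolithin A replicate 1 it was 1.31 (adjusted p = 0.0186), without urolithin A replicate 3 it was 0.34 (adjusted p = 0.622), and without probe sets of shared sequence 0.23 (adjusted p = 0.522). ACKR3, the scavenger receptor, read -0.26, 0.043 and 0.0036 against -0.075, 0.39 and 0.38 (log2 change 0.30, SE 0.14, limma adjusted p = 0.223). Without urolithin A replicate 1 it was 0.46 (adjusted p = 0.0458). GFRA1, a co-receptor of RET, had a log2 change of 0.025 (SE 0.065, limma adjusted p = 0.869).

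**Figure D4:**
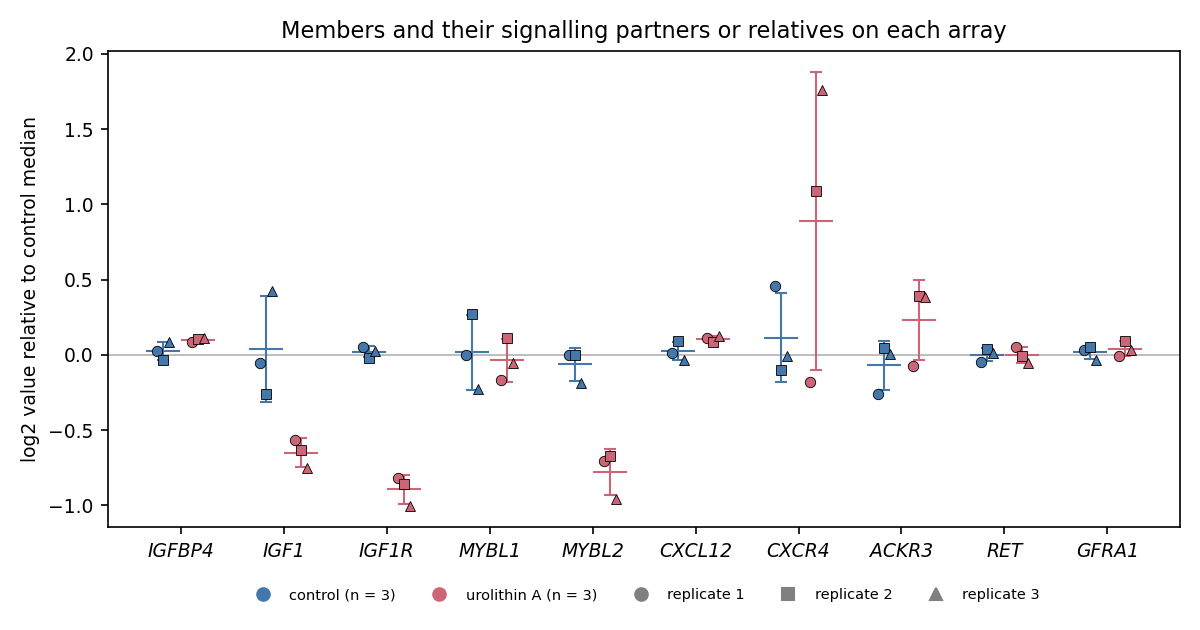
Log2 value relative to the control median (y axis) of 4 members, IGFBP4, MYBL1, CXCL12 and RET, and of genes that act with them or belong to their families, on each of the 6 arrays (points, shaped by replicate number), with group means and SD (bars, n = 3). IGF1, IGF1R and MYBL2 lie below all controls after urolithin A, while the treated arrays of CXCR4 range from -0.18 to 1.76.

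Genes that androgen induces are given beside the members because GREB1 belongs to both programmes. Of 17 measured, 15 fell and 0 rose (0 higher and 15 lower at an unadjusted p under 0.05 by limma), and 2 missed the threshold. Their median log2 change was -1.30. Over all genes 5.31% fell and 4.85% rose, and 11.5% were lower and 12.5% higher at that unadjusted p. KLK2, a kallikrein protease gene, had a log2 change of -2.07 (SE 0.15, limma adjusted p = 0.000315), EAF2, an elongation cofactor gene, one of -1.83 (SE 0.12, adjusted p = 0.000258), the scaffold gene HOMER2 one of -1.59 (SE 0.10, adjusted p = 0.000246) and the transcription factor gene MAF one of -1.11 (SE 0.082, adjusted p = 0.000315). As means over probe sets, the changes of CA12 and GREB1, at -0.55 and -0.45, were smaller in size than that of every androgen-induced gene that passed. The value of GREB1 varied with the averaging, as its probe set 11755246_x_at alone was at -1.11. The -1.11 of MAF is itself a mean over 4 probe sets, so a single probe set is not its like. The fall of the androgen-induced genes was already known when they were chosen and is no independent support.

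Markers of other cell types did not pass in the limma fit: 0 of 9 fibroblast or smooth muscle genes, 0 of 3 endothelial, 0 of 5 leukocyte and 0 of 3 prostate basal genes, with none at an unadjusted p under 0.05. Over all genes 10.2% were called, and 24.1% were below that unadjusted p. The summed log2 values of the 9 fibroblast or smooth muscle genes ranged from -0.21 to 0.28 in the controls and from -0.24 to 0.26 after urolithin A. Those of the 5 leukocyte genes ranged from -0.16 to 1.41 and from 0.037 to 3.38. HLA-DRA made up most of that range, at 1.01, 0.032 and -0.023 in the controls and -0.017, 1.17 and 3.09 in the urolithin A replicates. PTPRC, another leukocyte marker, read 0.12, -0.18 and 0.014 against -0.0015, 0.41 and 0.40 (log2 change 0.28, SE 0.12, limma adjusted p = 0.208). CD68, CD3E and CD14 had log2 changes of 0.057, -0.010 and -0.018. HLA-DRA was high on the same arrays as CXCR4, and PTPRC on urolithin A replicates 2 and 3 among them. The part of either in the values of CXCR4 was not tested. Without control replicate 1 and urolithin A replicate 3 the log2 change was -0.50 for CA12 and -0.45 for GREB1, with neither called (limma adjusted p = 0.116 and 0.139 with 4 arrays). That fit kept urolithin A replicate 2, where HLA-DRA was also raised, at 1.17. Of 6 luminal prostate markers, KLK3 and TMPRSS2, both androgen-induced, fell and FOLH1 rose by 1.24-fold (limma adjusted p = 0.0202). KRT8, KRT18 and HOXB13, markers of luminal cells, did not pass, at log2 changes of 0.13, -0.071 and 0.055. Leaving out control replicate 2 or 3, or urolithin A replicate 1 or 3, ended the call of FOLH1 (adjusted p up to 0.0707).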

How the data were processed

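The authors deposited logarithmic values, taken here as log2, for 49386 probe sets and 6 arrays. RMA is the method in the submitters' processing notes, without a version; it subtracts background, equalises the distributions of arrays and combines the probes of a set. Each of the 49386 control medians was 0, so values are relative to the controls. No source states the logarithm's base. The number of arrays limits the precision.

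Probe sets with 1 symbol in the platform annotation (45253, without 93 control probe sets) were averaged per gene, giving 18239 genes. A further 1327 had several symbols and 2713 none. The main model (limma 3.58.1, R 4.3.3, functions lmFit and eBayes) had the treatment term alone and two-sided tests, with Benjamini-Hochberg adjustment over all genes and a threshold of 0.05; probe sets were also fitted singly. Intervals are 95% intervals of that fit. The fit was tested on simulated data. Groups came from the sample titles. Same-numbered arrays deviated together with correlations of 0.078, 0.023 and 0.20, not all above 0.1. Arrays of different numbers had correlations from -0.14 to 0.073. The numbers were not taken to pair arrays, although this check cannot settle it. Calls that changed with the replicate number as a block are given further on.

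Members and lists were chosen with earlier results of these data known. Of the lists, the text names up to 4 genes that passed with the smallest p, and the receptors; exceptions are marked where they stand. Genes of the lists without a single-symbol probe set were not analysed here. Alternatives were a replicate block, other probe set summaries, centring, variance priors, array weights, a stricter threshold and left-out arrays. Fits without some or all of the arrays with raised HLA-DRA were added after the data were seen.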

Additional observations from a re-analysis of the deposited data

How the results depend on the processing

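With the replicate number as a block, 3 estrogen-responsive genes passed in place of 2, as SIAH2 joined CA12 and GREB1 (adjusted p = 0.0455), and 4 other estrogen-induced genes passed in place of 2, all lower. ACKR3 (adjusted p = 0.0479) and KRT19 (adjusted p = 0.0444) passed with the block too, and CELSR2 (adjusted p = 0.0880), CREBBP (adjusted p = 0.0869) and CYP1A1 (adjusted p = 0.0811) did not; it changed no other call among the named genes refitted with it. Of the members, 1 passed with the median of probe sets, 1 without probe sets of shared sequence, 0 without moderation (2 at an unadjusted p under 0.05), 0 at the threshold of 0.01 (3 unadjusted), 0 without control replicate 1 and urolithin A replicate 3 (3 unadjusted), and 0 in the fit of urolithin A replicate 1 with control replicates 2 and 3 (2 unadjusted). Without a single array, 0 to 2 passed. The log2 change kept its sign under all 16 alternatives for CA12, GREB1, SIAH2, IGFBP4 and CXCL12. The replicate block, the trended prior, the fit without moderation and the stricter threshold leave the estimate unchanged, so they could not turn a sign.

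Of the other estrogen-induced genes, 1 passed with the median of probe sets, without shared sequence, with centring, with array weights and in the fit of those last 3 arrays (TFF1). None passed with the trended prior (13 unadjusted), without moderation (6) or at 0.01 (13). Without a single array 0 to 2 passed. With probe sets tested singly, 6 genes had at least 1 that passed, 5 of them higher and 1 lower. Over all genes 560 passed without moderation, 642 at 0.01, 1063 to 1309 without a single array, 705 without control replicate 1 and urolithin A replicate 3, and 48 in the fit of those 3 arrays. Of the remaining lists together 22 genes passed, 14 without moderation and 7 in that fit; without a single array 18 to 21 passed.

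Signs turned only for genes near 0 and in the 3-array fit: without a single array the log2 change ranged from -0.17 to 0.076 for MYBL1, -0.033 to 0.022 for RET, -0.0018 to 0.048 for GFRA1, -0.0050 to 0.069 for GPER1 and -0.034 to 0.059 for ESR2. GPER1 was at -0.0019 without shared sequence. ESR2 was at -0.0062 with centring and -0.061 without control replicate 1 and urolithin A replicate 3. In the 3-array fit RET was at 0.027, GFRA1 at -0.014, GPER1 at -0.023, ESR2 at -0.11, ACKR3 at -0.099 and CXCR4 at -0.13. The cause of these changes was not tested. Fits with fewer arrays have fewer residual degrees of freedom, and with 1 urolithin A array it is assumed to vary like the controls.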

Other observations

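Enzymes that make or clear estrogens were measured for 9 genes, of which 2 fell and 0 rose, and 7 missed the threshold. The called share was 22.2%, where 10.2% of all genes were called and 5.31% fell. The median log2 change of the 9 was -0.046. At an unadjusted p under 0.05 by limma, 1 was higher and 3 lower, against 24.1% of all genes in either direction. HSD17B4, which oxidises estradiol and also serves peroxisomal fat breakdown, read -0.074, 0.0077 and 0.0059 in the controls and -0.41, -0.36 and -0.31 after urolithin A (log2 change -0.34, SE 0.065, limma adjusted p = 0.0138). Its call ended without control replicate 2 (adjusted p = 0.0538). CYP1A1, which hydroxylates estradiol and is induced by the aryl hydrocarbon receptor, read 0.035, -0.11 and 0.056 against -0.43, -0.19 and -0.36 (log2 change -0.32, SE 0.084, limma adjusted p = 0.0453). Leaving out urolithin A replicate 2 kept that call, and leaving out any other array ended it (adjusted p up to 0.134).

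Over the 6 arrays, the genes whose values followed CA12 most closely were PIGK, AIF1L and RACGAP1, with Pearson correlations of 1.00, 0.999 and 0.997. For CXCL12, the member with the highest change, they were ATXN1L, KCNQ5 and PAM, at 0.994, 0.990 and 0.986. With 18239 genes searched over 6 arrays that share their controls, such values describe these arrays and carry no test.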
